A study of Solanum lycopersicum with 36 samples.

Results

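The sly-MIR156a locus, from which a precursor of the microRNA miR156 is transcribed, was described in tomato together with 9 genes of the SBP-box family of transcription factors. These 10 members were picked out of 35872 gene models and loci by the locus name or by gene ID, and all 10 had a row in both the root and the shoot data. RNA-Seq was performed on shoots and roots of *sdg33*, *sdg34* and wild-type (WT) plants supplied with N (+N) or not (-N). The 36 libraries fall into 12 groups of 3 replicates. *sdg33* and *sdg34* are CRISPR mutants of SDG33 and SDG34, histone lysine methyltransferases, in the cultivar Castlemart II, which also served as WT. Each mutant was represented by a single edited line, and each library by a pool of 3 plants.

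All plants grew hydroponically for 2 weeks with N and then spent 2 days in N-free medium. They were then moved for 5 h to a +N medium with 1.2 mM KNO3, 0.8 mM Ca(NO3)2 and 0.2 mM NH4H2PO4, or to a -N medium with 0 mM of these salts. The -N plants of every genotype were therefore starved for longer, and the +N plants were resupplied after starvation. The members were chosen by family, but selected on measured values in so far as the differences of mutant from WT shoots were already known, sly-MIR156a and Solyc02g077920 being among the genes listed for that contrast. Which contrast led to the choice is not stated in the sources used here. The differences of the mutants from WT in shoots are taken as the values used and are given as a description with no test, whereas root, N and organ comparisons were tested.

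miR156 is a plant microRNA that base-pairs with mRNAs of many SBP-box genes, also called SPL genes, and represses them by cleavage and by blocking translation. In Arabidopsis miR156 is abundant in juvenile shoots and declines as the plant ages. The SPL factors that are then released promote the change to the adult phase and flowering, in part through another microRNA, miR172. In tomato the best known SBP-box gene is Colorless non-ripening (CNR), here Solyc02g077920, which is named for a fruit phenotype and whose listed Arabidopsis homolog is SPL3. The sources used here give the other 8 genes no role beyond membership of the family, and which of the 9 carry a miR156 site was not analyzed here. Reads at the locus come from the precursor transcript or from any transcript that overlaps it, so they are not a measurement of mature miR156.

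The values are normalized counts, and every library was normalized by the authors to the same set of values, with a total of 19667069. The number of reads behind each value is therefore unknown, and the error is the spread between replicate pools. SDG33 transcripts were still detected in *sdg33*, at 136 to 284 normalized counts in shoots against 380 to 562 in WT, and at 319 to 462 in roots against 392 to 525 in WT. SDG34 transcripts reached 58 to 95 normalized counts in *sdg34* shoots against 98 to 194 in WT, and 77 to 174 in roots against 130 to 201 in WT. Over both N conditions the ranges of mutant and WT were apart in shoots and overlapped in roots, and an edited gene may keep its transcript. Within each N condition, SDG33 was lower in all *sdg33* root libraries than in WT, with a log2 difference of -0.30 (SE 0.07, limma adjusted p = 0.00174). SDG34 in *sdg34* roots overlapped WT at both N conditions, with a log2 difference of -0.44 (SE 0.18, limma adjusted p = 0.0522). A lower SDG33 level was not confined to *sdg33*. In *sdg34* shoots at -N it was 204 to 302 normalized counts against 404 to 562 in WT, whereas at +N the libraries overlapped. SDG34 was higher in *sdg33* roots than in WT, by 0.33 log2 units (SE 0.09, limma adjusted p = 0.00674). The 6 photosystem genes taken as shoot markers stood 3.70 to 13.21 higher in shoots than in roots on the log2 scale, over all genotypes. Of these, Solyc08g067320, Solyc02g070970, Solyc11g008480 and Solyc06g069730 had at most 6, 12, 2 and 4 normalized counts in roots. They passed the filter through their shoot libraries alone, so the size of their differences depends on the pseudocount of 1.

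sly-MIR156a was transcribed in shoots and was at most 1 normalized count in every root library. In *sdg33* shoots the locus had 17, 3 and 18 normalized counts at +N and 20, 23 and 18 at -N. In *sdg34* shoots it had 34, 20 and 30 at +N and 30, 8 and 46 at -N. In WT shoots it had 113, 70 and 83 at +N and 232, 188 and 76 at -N. Every mutant shoot library lay below every WT shoot library. The difference from WT on the log2(value + 1) scale was -2.90 (SE 0.39) in *sdg33* and -2.15 (SE 0.37) in *sdg34*, corresponding to 0.134 and 0.225 of the WT level. The highest group mean was that of WT at -N, 165.3 ± 80.4 (SD, n = 3), followed by WT at +N with 88.67 ± 22.1, both *sdg34* groups with 28.0, *sdg33* at -N with 20.33 ± 2.52 and *sdg33* at +N with 12.67 ± 8.39. The ranges of neighbors in this order overlapped or touched, except between WT and the *sdg34* groups.

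CNR was also lower in mutant shoots. It had 32, 29 and 37 normalized counts in *sdg33* shoots at +N and 43, 46 and 65 at -N, and 62, 50 and 49 in *sdg34* shoots at +N and 57, 59 and 81 at -N. WT shoots had 134, 129 and 108 at +N and 132, 232 and 170 at -N. Again no mutant library reached the lowest WT library, and the log2 difference from WT was -1.82 (SE 0.19) in *sdg33* and -1.30 (SE 0.17) in *sdg34*. In bulk tissue, fewer cells that express a gene and less RNA per cell cannot be told apart.

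**Figure D1:**
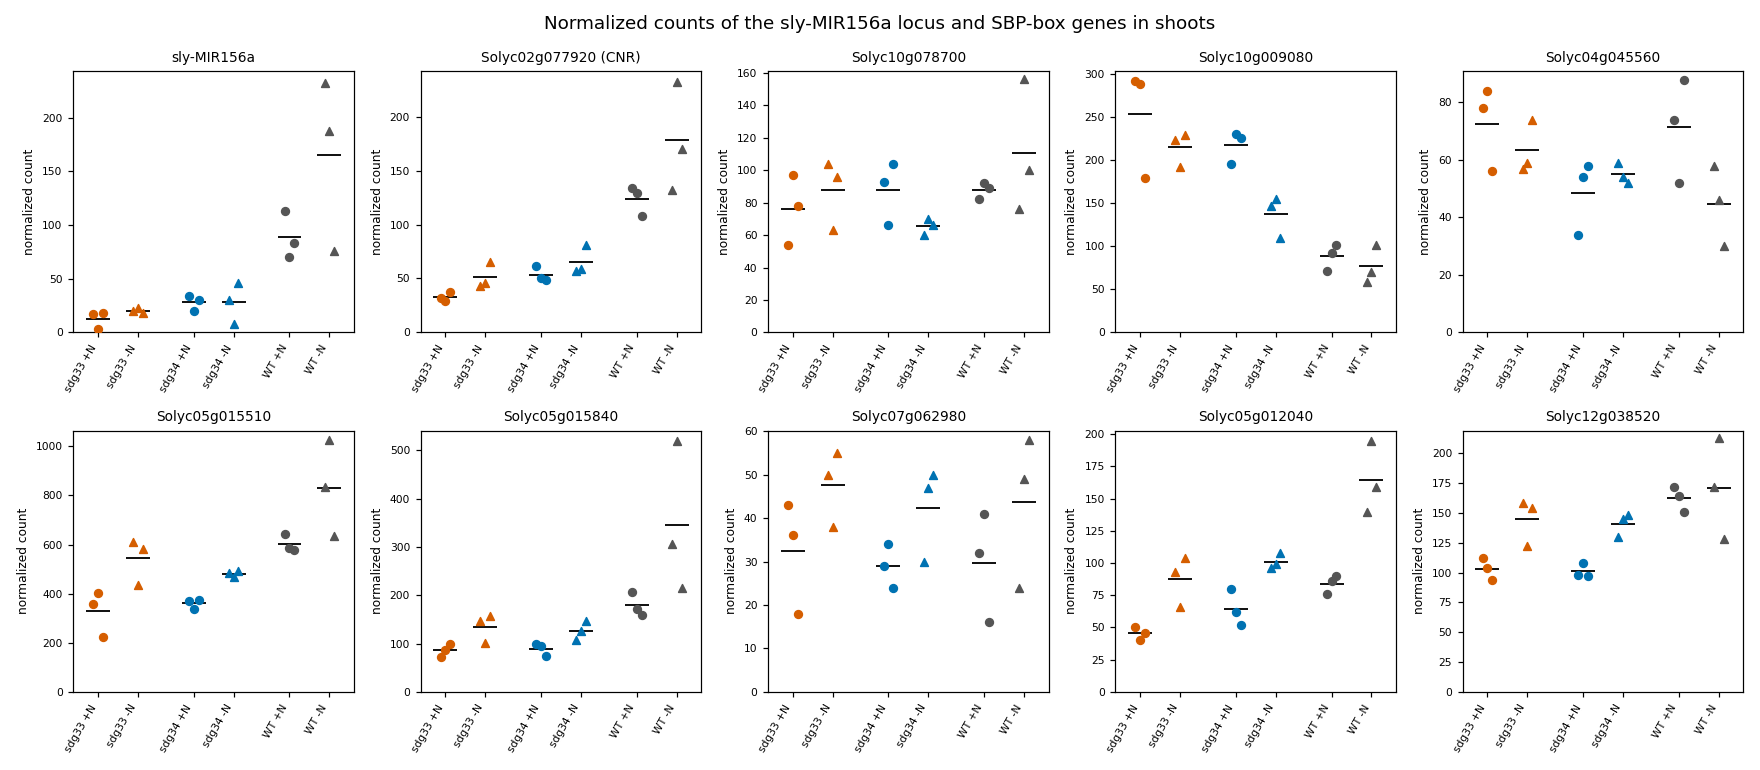
Normalized counts (vertical axis, linear from 0) of the 10 members in shoots for each genotype and N condition; each point is 1 library, circles are +N, triangles are -N, and bars are means of 3 libraries. sly-MIR156a, CNR, Solyc05g015510 and Solyc05g015840 are below WT in both mutants, whereas Solyc10g009080 is above WT.

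The other SBP-box genes did not move as a block in shoots. Solyc05g015840 had 72 to 156 normalized counts in the 6 *sdg33* libraries and 74 to 147 in the 6 *sdg34* libraries, against 159 to 518 in WT, with log2 differences of -1.17 (SE 0.20) and -1.18 (SE 0.19). Solyc05g015510, the member with the most normalized counts, had 225 to 612 in *sdg33* and 336 to 494 in *sdg34*, against 576 to 1024 in WT, with log2 differences of -0.76 (SE 0.16) and -0.75 (SE 0.11). Both genes lay below WT in all libraries of the same N condition. Solyc05g012040 differed by -0.90 (SE 0.17) in *sdg33* and by -0.54 (SE 0.16) in *sdg34*, whose highest +N library, with 80 normalized counts, overlapped the lowest of WT, with 76. Solyc12g038520 differed by -0.43 (SE 0.15) and -0.46 (SE 0.14) in *sdg33* and *sdg34*.

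Solyc10g009080 went the other way. It had 292, 289 and 179 normalized counts in *sdg33* shoots at +N and 224, 192 and 229 at -N, and 196, 231 and 226 in *sdg34* shoots at +N and 147, 155 and 110 at -N. WT shoots had 71, 92 and 102 at +N and 59, 70 and 102 at -N. All mutant libraries were above all WT libraries, and the log2 difference was 1.50 (SE 0.18) in *sdg33* and 1.08 (SE 0.17) in *sdg34*, or 2.82 and 2.11 times the WT level. For Solyc10g078700, Solyc04g045560 and Solyc07g062980 the log2 differences lay between -0.36 and 0.29, and their mutant and WT libraries overlapped at one N condition or at both.

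Counted together, 5 of the 10 members lay below WT at both N conditions in *sdg33* shoots and 1 above. Among all genes tested, 16.1% lay below and 20.1% above. In *sdg34* shoots 4 members lay below and 1 above, beside 14.8% and 16.8% of all genes. Nothing is read from these counts, since the members were proposed with this contrast known. The median log2 difference of the members was -0.60 in *sdg33* and -0.50 in *sdg34*, beside 0.04 and 0.03 over all genes tested, and both mutants were compared with the same WT libraries. The 6 photosystem genes differed from WT in the same shoots by 0.82 to 3.36 in *sdg33* and by 0.82 to 2.90 in *sdg34* on the log2 scale. The study had named them from these shoot libraries, and their part in the values above was not tested.

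**Figure D2:**
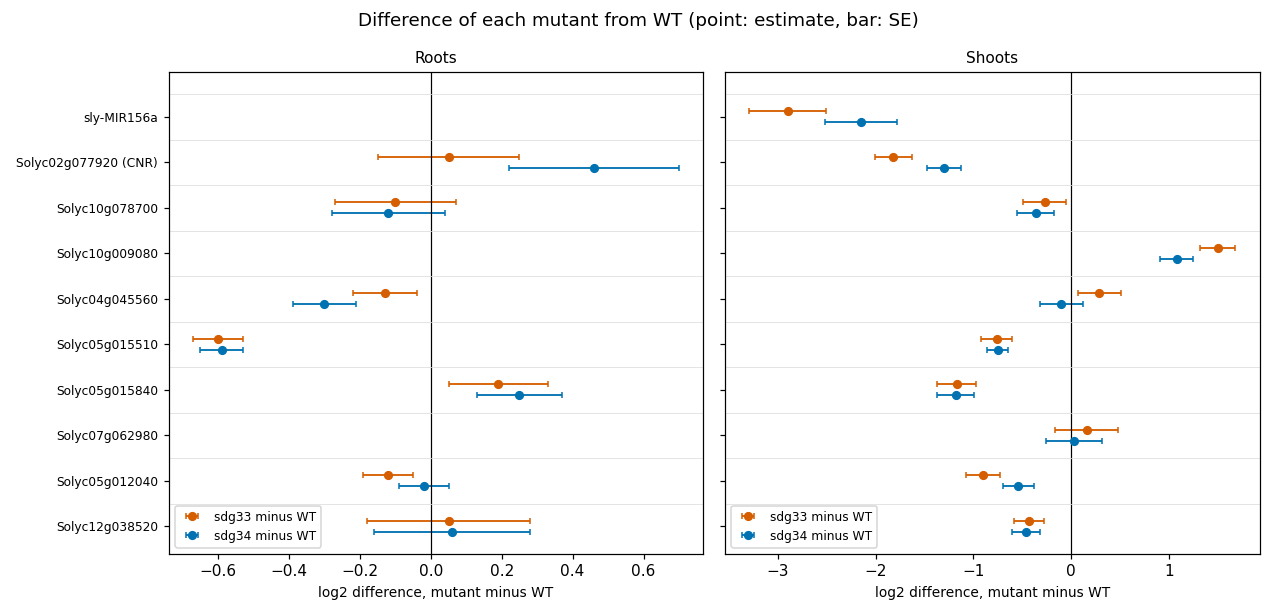
Log2 difference of each mutant from WT, averaged over +N and -N (horizontal axis), for each member in roots (left) and shoots (right); points are estimates and bars are SE. In roots Solyc05g015510 lies farthest below WT in both mutants, and sly-MIR156a, Solyc10g009080 and Solyc07g062980 were too low in roots to be tested.

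In roots, 7 of the 10 members passed the filter of at least 10 normalized counts in at least 3 libraries. sly-MIR156a (at most 1 normalized count), Solyc07g062980 (at most 9) and Solyc10g009080 (at most 12) did not. Solyc05g015510 was lower in both mutants. It had 490, 426 and 476 normalized counts in *sdg33* roots at +N and 781, 850 and 740 at -N, and 477, 436 and 420 in *sdg34* roots at +N and 798, 838 and 876 at -N. WT roots had 702, 842 and 789 at +N and 1100, 981 and 1168 at -N. Mutant libraries lay below WT libraries within both N conditions, which held for no other member and for 15.8% of all genes in *sdg33* roots and 14.1% in *sdg34* roots. The log2 difference was -0.60 (SE 0.07, limma adjusted p = 5.03e-06) in *sdg33* and -0.59 (SE 0.06, limma adjusted p = 5.28e-06) in *sdg34*.

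This was the single member called in *sdg33* roots, 1 of 7 lower and 0 higher, beside 28.7% of all genes called lower and 26.4% called higher. By limma 0 members were higher at an unadjusted p under 0.05 as well, in either mutant. In *sdg34* roots Solyc04g045560 was also lower, with 216, 169 and 182 normalized counts at +N and 182, 154 and 164 at -N, against 226, 233 and 216 and 214, 244 and 180 in WT, a log2 difference of -0.30 (SE 0.09, limma adjusted p = 0.0172). Its libraries touched or overlapped those of WT, and neither N condition alone passed the threshold (limma adjusted p = 0.129 at +N and 0.0788 at -N). The 2 lower calls of 7 members in *sdg34* roots stand beside 27.7% of all genes called lower and 24.4% called higher, so that the members were called no more often than genes in general. The median log2 difference of the members was -0.10 in *sdg33* roots and -0.02 in *sdg34* roots, beside -0.01 and -0.02 over all genes.

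The low CNR level of mutant shoots was not seen in roots. CNR had 62, 48 and 32 normalized counts in *sdg33* roots at +N and 98, 192 and 145 at -N, 87, 94 and 30 in *sdg34* roots at +N and 174, 184 and 184 at -N, against 72, 46 and 53 and 126, 96 and 101 in WT. The log2 difference was 0.05 (SE 0.20, limma adjusted p = 0.852) in *sdg33* and 0.46 (SE 0.24, limma adjusted p = 0.123) in *sdg34*. The *sdg34* value depended on a single library. Without replicate 3 of *sdg34* roots at +N, which had 30 normalized counts, it was 0.72 (limma adjusted p = 0.000607), with *sdg34* above WT. Solyc05g015840 likewise had a log2 difference of 0.19 (SE 0.14, limma adjusted p = 0.25) in *sdg33* roots and 0.25 (SE 0.12, limma adjusted p = 0.0937) in *sdg34* roots. The *sdg34* difference was 0.47 at +N alone (limma adjusted p = 0.0333), where all *sdg34* libraries were above WT. At -N alone it was 0.03 (limma adjusted p = 0.912). Averaged over +N and -N, the *sdg34* value was called without WT replicate 1 at -N (limma adjusted p = 0.0427) or at +N (limma adjusted p = 0.0276).

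Several SBP-box genes were lower in roots after N supply. Against -N, +N roots were lower for 4 and higher for 1 of 7 members in *sdg33*, lower for 5 and higher for 1 in *sdg34*, and lower for 3 in WT. Over all genes, 23.2% were called lower and 20.7% higher in *sdg33*, 27.1% and 25.7% in *sdg34*, and 22.1% and 21.8% in WT. The median log2 response of the members was -0.77 in *sdg33*, -0.78 in *sdg34* and -0.48 in WT, beside -0.02 over all genes in each genotype.

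CNR responded by -1.59 (SE 0.35, limma adjusted p = 0.0013) in *sdg33* roots, -1.51 (SE 0.35, limma adjusted p = 0.00147) in *sdg34* roots and -0.92 (SE 0.35, limma adjusted p = 0.0412) in WT roots. All +N libraries were below all -N libraries of the same genotype. The WT call was lost when WT replicate 1, 2 or 3 at -N, or WT replicate 2 or 3 at +N, was left out, with limma adjusted p from 0.0603 to 0.134, and also with no filter (limma adjusted p = 0.0632) or no variance trend (limma adjusted p = 0.0597). Solyc05g015510 was lower at +N by 0.77, 0.91 and 0.48 log2 units in *sdg33*, *sdg34* and WT roots (SE 0.09 each, limma adjusted p = 2.42e-06, 1.67e-07 and 0.000307). Solyc05g015840 had 118 to 154 normalized counts at +N against 192 to 282 at -N in *sdg33* roots, 146 to 159 against 220 to 242 in *sdg34* roots, and 93 to 137 against 176 to 268 in WT roots. Its log2 responses were -0.82, -0.58 and -1.02 (SE 0.17 each), all past the threshold.

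Solyc12g038520 and Solyc10g078700 were called in fewer genotypes. Solyc12g038520 responded by -1.11 (SE 0.31, limma adjusted p = 0.00779) in *sdg33* roots and -0.78 (SE 0.31, limma adjusted p = 0.0416) in *sdg34* roots, and its estimate in WT was -0.73 (SE 0.31, limma adjusted p = 0.0671). The *sdg34* and WT values sat near the threshold. The *sdg33* call was lost without *sdg33* replicate 2 at +N (limma adjusted p = 0.0527). The *sdg34* call was lost without *sdg34* replicate 1 or 3 at either N condition (limma adjusted p from 0.0748 to 0.149), and WT passed in 3 of the leave-one-out fits (limma adjusted p from 0.033 to 0.0475), those without *sdg33* replicate 2 at +N, WT replicate 2 at -N and WT replicate 3 at +N. With no filter the *sdg34* call was also lost (limma adjusted p = 0.0628), and with a replicate block WT passed (limma adjusted p = 0.0443). Solyc10g078700 had 44, 38 and 31 normalized counts in *sdg34* roots at +N against 70, 88 and 59 at -N, a log2 response of -0.92 (SE 0.23, limma adjusted p = 0.00316), whereas its libraries overlapped in *sdg33* and in WT roots (-0.21 and -0.31, SE 0.23 each).

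Solyc05g012040 was the only member called higher at +N in roots. It had 422, 372 and 448 normalized counts at +N against 258, 275 and 289 at -N in *sdg33*, and 499, 430 and 400 against 290, 307 and 282 in *sdg34*. WT roots had 396, 395 and 376 at +N against 340, 308 and 384 at -N. The +N and -N libraries were apart in both mutants and overlapped in WT. Relative to WT, the *sdg34* libraries of this gene were all higher at +N and all lower at -N, and those of *sdg33* overlapped WT at +N and were all lower at -N. The log2 response was 0.59 (SE 0.10) in *sdg33* (limma adjusted p = 0.000136) and in *sdg34* (limma adjusted p = 9.57e-05), and 0.18 (SE 0.10, limma adjusted p = 0.157) in WT.

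**Figure D3:**
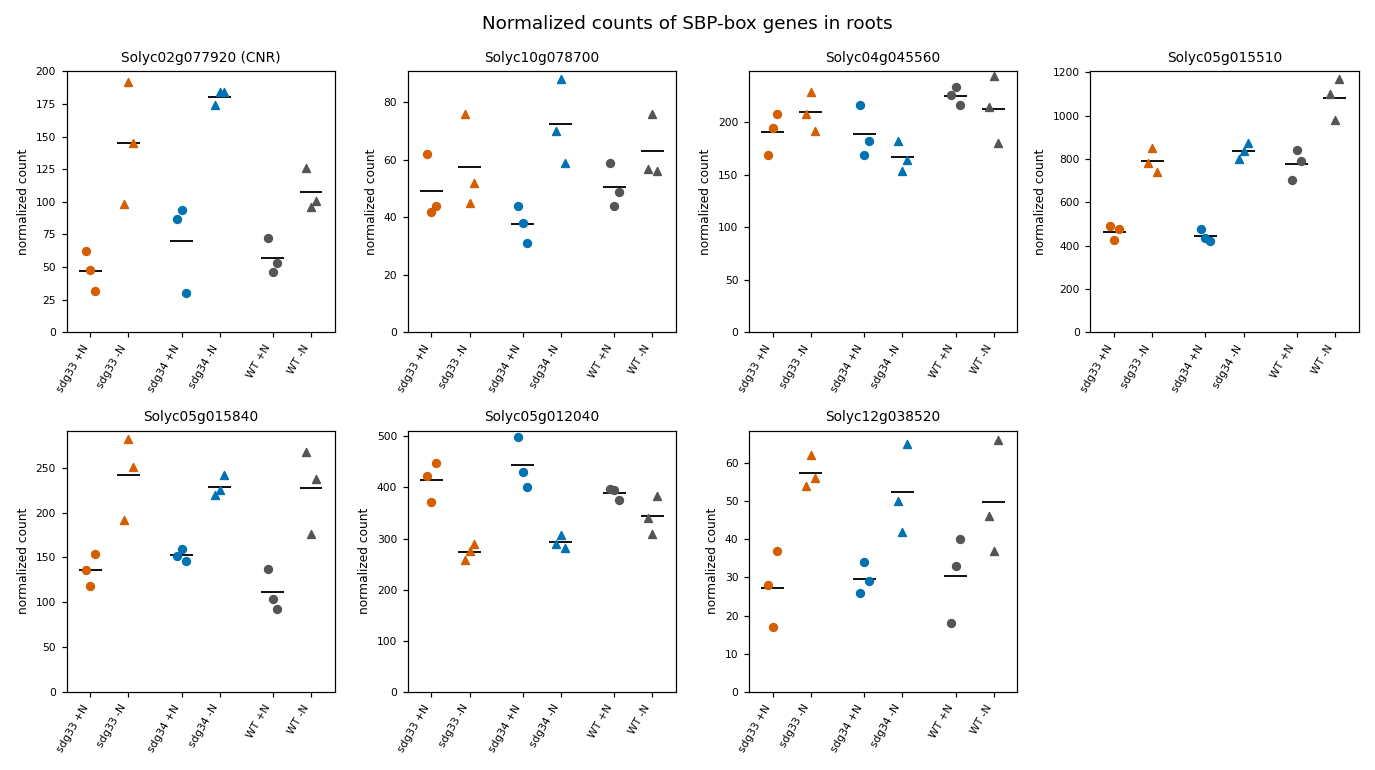
Normalized counts (vertical axis, linear from 0) of the 7 members tested in roots for each genotype and N condition; each point is 1 library, circles are +N, triangles are -N, and bars are means of 3 libraries. The +N libraries of CNR, Solyc05g015510 and Solyc05g015840 are below the -N libraries in every genotype, and those of Solyc05g012040 are above them in both mutants.

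In shoots, fewer responses to N passed the threshold. At +N, 2 of 10 members were lower in *sdg33*, 1 was lower and 1 higher in *sdg34*, and 2 were lower in WT. Over all genes, 13.8% were called lower in *sdg33* and 12.7% higher, 11.0% and 11.1% in *sdg34*, and 15.4% and 15.0% in WT. The medians of the members were -0.62, -0.35 and -0.46 in *sdg33*, *sdg34* and WT, beside -0.05, -0.04 and -0.04 over all genes.

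Solyc05g012040 was lower at +N in shoots of all 3 genotypes, opposite in sign to its response in roots. It had 50, 40 and 46 normalized counts at +N against 93, 66 and 104 at -N in *sdg33*, 80, 62 and 52 against 96, 99 and 108 in *sdg34*, and 76, 86 and 90 against 140, 195 and 159 in WT. No +N library reached a -N library of its genotype. The log2 responses were -0.92 (SE 0.22, limma adjusted p = 0.00475) in *sdg33*, -0.66 (SE 0.22, limma adjusted p = 0.042) in *sdg34* and -0.95 (SE 0.22, limma adjusted p = 0.00306) in WT. The *sdg34* call was lost in 6 of the leave-one-out fits (limma adjusted p from 0.0514 to 0.178), those without any of the *sdg34* replicates at -N, *sdg34* replicate 2 or 3 at +N, or *sdg33* replicate 1 at -N.

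The difference between the shoot and the root response was tested directly, a test added after the data had been seen. For Solyc05g012040 it was -1.51 (SE 0.25, limma adjusted p = 0.00149) in *sdg33*, -1.25 (SE 0.22, limma adjusted p = 0.00119) in *sdg34* and -1.14 (SE 0.22, limma adjusted p = 0.0082) in WT. Among all genes, 11.1% were called lower in shoots than in roots by this test in *sdg33*, 14.7% in *sdg34* and 5.42% in WT, and Solyc05g012040 was the only member called lower in each. In *sdg34*, 3 members were called higher, beside 15.4% of all genes, namely Solyc10g078700 (1.31, SE 0.33), Solyc05g015510 (0.49, SE 0.12) and Solyc10g009080 (1.04, SE 0.37, limma adjusted p = 0.049). Solyc10g009080 had 5 to 12 normalized counts in *sdg34* roots and passed the filter through its shoot libraries alone, so its value is no support for a difference between organs. No member was called higher by limma in *sdg33* or in WT (1 and 0 at an unadjusted p under 0.05), where 9.74% and 4.85% of all genes were.

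The remaining shoot calls were less stable. Solyc05g015510 responded by -0.75 (SE 0.19, limma adjusted p = 0.00665) in *sdg33* shoots, and by -0.50 (limma adjusted p = 0.0522) without replicate 3 at +N, its lowest library with 225 normalized counts. Solyc05g015840 responded by -0.86 (SE 0.26, limma adjusted p = 0.0185) in WT shoots. Without WT replicate 2 at -N, which had 518 normalized counts, its response was -0.52 (limma adjusted p = 0.12), and without WT replicate 3 at +N it was -0.77 (limma adjusted p = 0.0707). In shoots of both mutants the +N libraries of this gene also lay below all -N libraries. Normalized counts were 72 to 100 against 101 to 156 in *sdg33*, and 74 to 100 against 107 to 147 in *sdg34*. Neither mutant response was called, but that of *sdg33* passed in 3 of the leave-one-out fits (limma adjusted p from 0.0371 to 0.0485). Solyc10g009080 was higher at +N in *sdg34* shoots, by 0.67 (SE 0.23, limma adjusted p = 0.043), with 3 +N libraries of 196 to 231 normalized counts above 3 -N libraries of 110 to 155. That call was lost with no filter (limma adjusted p = 0.0616), no variance trend (limma adjusted p = 0.0519) or a replicate block (limma adjusted p = 0.0558), without any single *sdg34* shoot library and without any single *sdg33* shoot library at -N (limma adjusted p from 0.0507 to 0.172).

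For sly-MIR156a no response to N in shoots passed the threshold. The log2 responses were -0.94 in *sdg33*, 0.27 in *sdg34* and -0.77 in WT (SE 0.59 each, limma adjusted p = 0.268, 0.796 and 0.349). The +N and -N libraries overlapped in every genotype. In *sdg34* the +N libraries, with 20 to 34 normalized counts, lay within the -N range of 8 to 46. In WT, -N replicate 3 had 76 normalized counts and +N replicate 1 had 113.

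**Figure D4:**
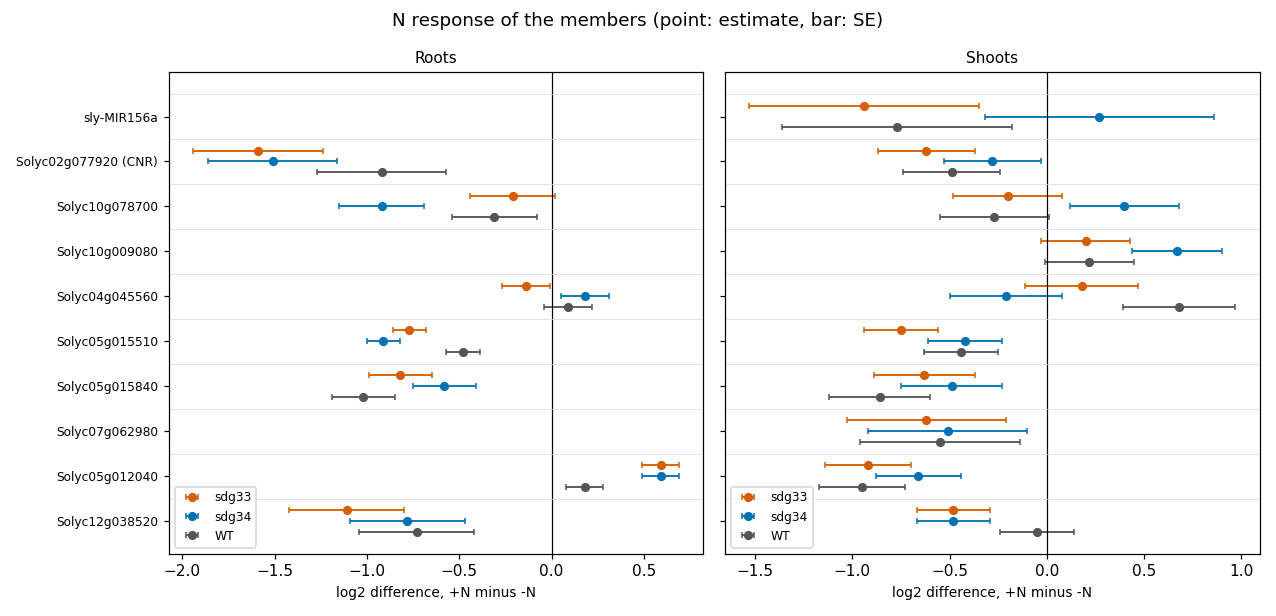
Log2 difference between +N and -N (horizontal axis) for each member and genotype in roots (left) and shoots (right); points are estimates and bars are SE. Solyc05g012040 lies right of 0 in roots and left of 0 in shoots, and most other members lie left of 0 in roots.

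Whether the mutations changed the response to N was asked with the interaction of genotype and treatment. In *sdg33* roots 0 of 7 members were called by limma (1 higher and 1 lower at an unadjusted p under 0.05), beside 4.46% of all genes called lower and 3.55% called higher. In *sdg34* roots 1 of 7 was called, beside 9.50% lower and 7.19% higher. This was Solyc05g015510, whose N response was more negative than that of WT by 0.44 (estimate -0.44, SE 0.13, limma adjusted p = 0.0307). It did not stand in 7 of the leave-one-out fits, where limma adjusted p was 0.0527 to 0.0804: those without *sdg34* replicate 2 or 3 at +N or at -N, WT replicate 2 or 3 at +N, or WT replicate 2 at -N. The interaction of Solyc05g012040 in roots was 0.41 in both mutants (SE 0.14, limma adjusted p = 0.103 in *sdg33*; SE 0.15, limma adjusted p = 0.0763 in *sdg34*). In *sdg34* it passed without *sdg34* replicate 3 at +N (limma adjusted p = 0.0398) or WT replicate 2 at -N (limma adjusted p = 0.0411). The calls of Solyc05g012040 in mutant roots and not in WT roots are thus not shown to differ.

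In shoots 0 of 10 members had an interaction past the threshold in either mutant by limma, and 0 had an unadjusted p under 0.05. Of all genes, 1.36% were called lower and 0.632% higher in *sdg33* shoots, and 2.83% and 1.80% in *sdg34* shoots. The estimate for sly-MIR156a was -0.16 (SE 0.77) in *sdg33* and 1.04 (SE 0.75) in *sdg34*, and that for CNR was -0.13 (SE 0.37) and 0.21 (SE 0.35).

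Comparing the mutants with each other, 0 of 7 members differed in roots by limma, and 0 had an unadjusted p under 0.05, where 0.521% of all genes were called lower in *sdg34* than in *sdg33* and 0.457% higher. In shoots Solyc10g009080 was lower in *sdg34* than in *sdg33* by 0.42 (estimate -0.42, SE 0.14, limma adjusted p = 0.0481), beside 8.23% of all genes called lower and 7.79% called higher. That call was lost in 10 of the 12 leave-one-out fits (limma adjusted p from 0.0542 to 0.123), the exceptions being *sdg33* replicate 3 at +N and *sdg34* replicate 2 at -N. CNR was 0.53 higher in *sdg34* (SE 0.18, limma adjusted p = 0.0537), and passed without *sdg33* replicate 3 at -N or at +N (limma adjusted p = 0.0389 and 0.0393). sly-MIR156a was 0.75 higher (SE 0.44, limma adjusted p = 0.256). The difference between the mutants in the locus did not pass the threshold. These shoot tests reuse the mutant shoot values taken as used to propose the members, so their p-values are no independent support.

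Shoots and roots were on the same normalized scale and were compared within each genotype. CNR was lower in shoots than in roots of both mutants, by 0.97 log2 units in *sdg33* (SE 0.21, limma adjusted p = 0.000882) and 0.85 in *sdg34* (SE 0.25, limma adjusted p = 0.00625). In WT it was higher in shoots by 0.91 (SE 0.17, limma adjusted p = 0.000345). Solyc05g015840 had the same arrangement, at -0.75 (SE 0.15) in *sdg33*, -0.82 (SE 0.11) in *sdg34* and 0.61 (SE 0.20, limma adjusted p = 0.0145) in WT. These differences of opposite sign rest on the shoot values used to propose the members, and whether they differ between genotypes was not tested. At +N alone the CNR difference between organs was -0.48 (limma adjusted p = 0.162) in *sdg33* and -0.23 (limma adjusted p = 0.558) in *sdg34*. For Solyc05g015840 in WT the difference at -N alone was 0.53 and was not called (limma adjusted p = 0.118).

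For the other members the sign of the organ difference, averaged over +N and -N, was shared by the 3 genotypes. Solyc12g038520 was higher in shoots by 1.63, 1.59 and 2.11 in *sdg33*, *sdg34* and WT, and Solyc10g078700 by 0.60, 0.53 and 0.77. At -N alone the difference of Solyc10g078700 in *sdg34* turned to -0.13 (limma adjusted p = 0.63), and in *sdg33* it passed at neither N condition alone (limma adjusted p = 0.0778 at +N and 0.0796 at -N). Solyc05g012040 was lower in shoots, at -2.41, -2.15 and -1.63, as were Solyc04g045560, at -1.55, -1.77 and -1.97, and Solyc05g015510, at -0.55, -0.55 and -0.39. Solyc10g009080 had 59 to 292 normalized counts in shoots and 2 to 12 in roots, and Solyc07g062980 had 16 to 58 in shoots and 0 to 9 in roots. These 2 genes and sly-MIR156a passed the filter through their shoot libraries alone. Over the 10 members 5 were called higher and 5 lower in shoots in each mutant, and 7 higher and 3 lower in WT, whereas without those 3 the higher calls were 2, 2 and 4 in *sdg33*, *sdg34* and WT. The share of all genes called higher in shoots was 37.9% in *sdg33*, 36.8% in *sdg34* and 35.0% in WT, and 44.0%, 44.5% and 44.0% were called lower.

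**Figure D5:**
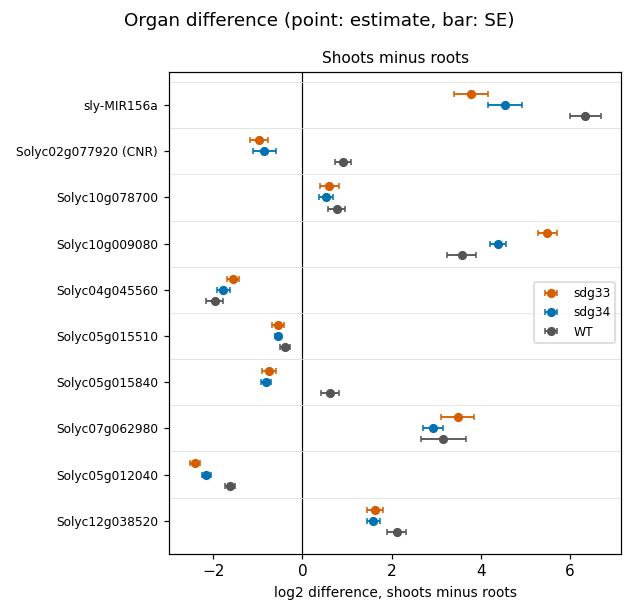
Log2 difference between shoots and roots (horizontal axis) for each member and genotype; points are estimates and bars are SE. CNR and Solyc05g015840 lie left of 0 in both mutants and right of 0 in WT; sly-MIR156a, Solyc10g009080 and Solyc07g062980 are near 0 counts in roots, so the size of their differences depends on the pseudocount of 1.

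A pair of further genes is annotated as Squamosa promoter binding in the lists of genes that differed between genotypes in shoots, so that their shoot values are again a description. Solyc07g053810, annotated as Squamosa promoter binding protein 4, had 7 to 20 normalized counts in *sdg33* shoots at +N and 15 to 26 at -N, 8 to 26 in *sdg34* shoots at +N and 13 to 26 at -N, against 44 to 86 and 40 to 90 in WT. It lay below WT throughout, with log2 differences of -1.92 (SE 0.31) and -1.91 (SE 0.32), and was too low to be tested in roots. Solyc04g064470, annotated as a Squamosa promoter-binding-like protein although its listed Arabidopsis homolog is a dehydroascorbate reductase, differed by -2.02 (SE 0.38) in *sdg33* shoots and -1.47 (SE 0.30) in *sdg34* shoots. In roots the sign turned. Solyc04g064470 had 31, 52 and 19 normalized counts in *sdg34* roots at +N and 21, 17 and 25 at -N, against 13, 7 and 11 and 7, 9 and 16 in WT. The *sdg34* roots were above WT in every library, with a log2 difference of 1.26 (SE 0.29, limma adjusted p = 0.00226), and the *sdg33* value was 0.72 (SE 0.29, limma adjusted p = 0.051). The *sdg33* value passed without *sdg33* replicate 1 at -N, *sdg33* replicate 3 at +N, WT replicate 3 at -N or WT replicate 1 at +N (limma adjusted p from 0.0244 to 0.0456).

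Among the other loci of these microRNA families, sly-MIR156d and sly-MIR156e had at most 7 normalized counts in any library. sly-MIR172c and sly-MIR172d had at most 3. sly-MIR172b had 0 to 5 in *sdg33* shoots, 1 to 10 in *sdg34* shoots and 1 to 17 in WT shoots, and at most 3 in roots. sly-MIR172a had 18 to 52 normalized counts in *sdg33* shoots and 26 to 44 in *sdg34* shoots, against 23 to 114 in WT. Over both N conditions these ranges overlapped, with log2 differences of -0.62 (SE 0.34) and -0.64 (SE 0.29), and roots had 0 to 6. At -N the *sdg33* libraries, with 22 to 33 normalized counts, were all below WT, with 37 to 114, whereas at +N the libraries overlapped and the difference was 0.054. Of the 104 microRNA loci in the data, 12 reached 10 normalized counts in at least 3 shoot libraries and 6 did so in root libraries. sly-MIR156a was 1 of 2 loci that lay below WT at both N conditions in *sdg33* shoots, the other being sly-MIR6022, and the only one in *sdg34* shoots. Above WT at both N conditions were sly-MIR167b, sly-MIR482b and sly-MIR1919a in *sdg33* shoots and sly-MIR167b in *sdg34* shoots, of 11 and 9 loci that passed the filter. Among all genes tested, 16.1% lay below and 20.1% above WT in *sdg33* shoots, and 14.8% and 16.8% in *sdg34* shoots. Nothing is read from these counts of loci either, since sly-MIR156a was proposed with this contrast known.

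Over the 36 libraries, the genes whose log2 values ran most closely with sly-MIR156a among 22701 genes were Solyc09g092580 (Pearson r = 0.978), annotated as a cytochrome P450, Solyc02g063000 (r = 0.97), annotated as a glycosyltransferase, and Solyc03g118170 (r = 0.97). Solyc09g092580 averaged 10.0 normalized counts in *sdg33* shoots at +N and 27.0 at -N, 27.0 in *sdg34* shoots at +N and 41.3 at -N, and 143 and 166 in WT, with at most 1 in any root library. The points are libraries that share organ and genotype, and r within an organ was not computed. CNR ran most closely with Solyc04g014960 (r = 0.887), annotated as an alpha 1,4-glycosyltransferase family protein, Solyc10g086240 (r = 0.886), annotated as a glycosyltransferase, and Solyc04g051310 (r = 0.883). Among the members, Solyc05g015840 was closest to CNR (r = 0.844, rank 20), and CNR and sly-MIR156a had r = 0.082 over both organs.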

How the data were processed

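Groups were taken from the deposited labels (genotype, N condition, organ and replicate number). As described in the paper's methods, the authors mapped reads by BBmap, assigned them to gene models and miRBase loci by featureCounts, and ran DESeq2. Whether counting used strand is not given in the sources used here. The deposited values, recorded here as a score, are counts that the authors full-quantile normalized and rounded. All 36 libraries hold the same sorted values, so depth and counting error cannot be recovered, and there were 0 unused columns.

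log2(value + 1) was fitted with limma 3.58.1 in R 4.3.3 (variance trend) for genes with at least 10 in at least 3 libraries of a fit. P-values were Benjamini-Hochberg adjusted over all genes tested, with a threshold of 0.05. Genotype effects, averaged over +N and -N, and interactions came from the 12 libraries of 2 genotypes in 1 organ, N responses from 18 libraries per organ, and organ differences from the 12 libraries of 1 genotype. P-values measure the spread between pools. The text names the 10 members, the miR156 and miR172 loci, 2 further annotated genes, SDG33 and SDG34, and the 3 genes closest to sly-MIR156a and to CNR. Members and lists were chosen with earlier results of these data known. Each comparison was first tested on simulated data in which 200 genes were shifted by a log2 difference of 2. Between 81% and 100% of them were called, with at most 18 other genes. Smaller differences, such as most of those given here, were not simulated. Alternatives were other filters, pseudocounts of 0.1 and 10, median-of-ratios rescaling, a replicate block, no variance trend, 1 fit per organ, each N condition alone and leaving out each library.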

Additional observations from a re-analysis of the deposited data

Results flagged for a closer look

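The N response of Solyc05g012040 differed between shoots and roots in each genotype, by -1.51 in *sdg33*, -1.25 in *sdg34* and -1.14 in WT on the log2 scale, under a test added after the data had been seen. In *sdg34* the same test gave 0.49 for Solyc05g015510, 1.04 for Solyc10g009080 and 1.31 for Solyc10g078700. Solyc10g009080 had 5 to 12 normalized counts in *sdg34* roots and passed the filter through its shoot libraries alone. Its call was also lost with a replicate block (limma adjusted p = 0.0752), no filter (limma adjusted p = 0.0685) or a pseudocount of 0.1 (limma adjusted p = 0.0618). The value for Solyc10g009080 lost its call in 10 of the leave-one-out fits (limma adjusted p from 0.0528 to 0.103), those without *sdg34* root replicate 3 at -N, any *sdg34* root replicate at +N, or any *sdg34* shoot library. The N response of Solyc05g015510 in roots differed between *sdg34* and WT by -0.44.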

How the results depend on the processing

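Depth is unknown, and 3 pools a group limit the precision. Only the fits of the difference between organs in WT with no filter moved the median of all genes by over 0.1 (0.102). Replicate numbers were not taken as pairs, since same-numbered deviations correlated by -0.141 to 0.257 in roots and -0.113 to 0.185 in shoots, with 7 and 5 of 45 pairs over 0.1. As a hint from the data that numbers may share something, 21 of 36 libraries were closest to their own number out of 3. Pairing between root and shoot libraries of the same number was not checked, and the organ comparisons treated them as independent. With the replicate block, 59 member calls were made instead of 61, and in *sdg34* shoots the N response called 0 members higher and 0 lower. No filter also gave 0 and 0 there, and no variance trend gave 0 higher and 2 lower, and 4 lower in *sdg33* shoots. At -N alone 2 members were lower in *sdg33* roots and 1 in *sdg34* roots. At +N alone 1 was higher and 1 lower in *sdg34* roots. Without a variance trend the interaction in *sdg34* roots called 0. Between the mutants in shoots, 1 member was higher under the every-library filter, rescaling or no trend, and 0 were lower with no filter, rescaling, no trend, 18 libraries in 1 fit, or either N condition alone. With 10 normalized counts required in every library, 2, 2 and 4 members were higher in shoots than in roots of *sdg33*, *sdg34* and WT. Reversed values were 0.054 for sly-MIR172a in *sdg33* shoots at +N, 0.342 for Solyc04g045560 in *sdg34* shoots at -N, and -0.13 for the organ difference of Solyc10g078700 in *sdg34* at -N. The causes were not tested. Leaving out 1 library gave, for *sdg34* roots, 0 to 1 member higher than WT and 0 to 1 higher and 0 to 1 lower in the interaction. For the N response in shoots it gave 1 to 4 lower in *sdg33*, 0 to 1 higher and 0 to 2 lower in *sdg34*, and 0 to 1 higher and 1 to 2 lower in WT, and between mutants in shoots 0 to 1 higher and 0 to 1 lower. Of the results for single genes with 1 library left out, 3216 counted as unchanged, 55 lost a call, 31 gained one and 4 moved. For a called result, unchanged means that the call and its direction were kept. A result short of the threshold counted as unchanged if it stayed uncalled and shifted by less than the residual SD, whatever its sign. Shoot differences from WT have no call and were judged by that shift alone.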
